A study of Mus musculus with 4 samples.

Results

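The coagulation and fibrinolysis genes, which encode the proteins that form, restrain and dissolve a blood clot, were compared between regenerating mouse livers that had received stromal cells carrying OGFRL1 and livers that had received the same kind of cells carrying EGFP. The list named 35 genes and was taken from the array by exact match of a probe set's single gene symbol. It found 34 genes of the 18193 named on the array, through 45 of its 45101 probe sets, while Cpb2 (the carboxypeptidase that slows clot lysis) had no match and was not analysed here. All 34 genes passed the filter on low signals.

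Carbon tetrachloride, a hepatotoxin, had been given 23 times at 0.25 ml/kg to the athymic BALB/c nu/nu mice of both groups. Each animal received 1000000 human bone marrow mesenchymal stem cells by injection into the spleen, expressing EGFP (a green fluorescent protein, the control; n = 2 arrays) or OGFRL1 (the opioid growth factor receptor-like protein; n = 2 arrays). Partial hepatectomy, the removal of part of the liver, followed on day 21, and the regenerating tissue was collected on day 8 of recovery. The transplanted cells were human and the array carries mouse probe sets, so the values describe mainly the host liver. Whether each array stands for a mouse of its own is not stated in the labels.

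Most clotting proteins circulate as inactive precursors made by hepatocytes and are switched on in turn by cleavage, until thrombin cuts fibrinogen into fibrin. Antithrombin, the protein C pathway and the tissue factor pathway inhibitor hold this cascade back, and plasmin, released from plasminogen by activators from endothelial and other cells, dissolves the clot. Several of the precursors work only after a vitamin K-dependent carboxylation in the hepatocyte. In liver, plasminogen activation is also known from matrix turnover after injury.

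None of the 34 genes differed between the groups at the adjusted threshold of 0.05 in limma, where 0.511% of the 11942 genes tested did, and the smallest adjusted p was 0.116, for Plat. The members nevertheless lay on both sides of 0. Log2 fold changes, given throughout as OGFRL1 minus EGFP on the log2(signal + pseudocount) scale, were below 0 for 24 genes and above 0 for 10, where 44.4% and 55.6% of all genes were. The members had a median of -0.27, beside a median of 0.04 over all genes tested. At an unadjusted p under 0.05, 11 members were lower and 2 higher, where 6.28% of all genes were lower and 9.01% higher. Both OGFRL1 arrays lay under both EGFP arrays for 20 members, which 20.5% of all genes showed, and above both for 2 members, which 27% of all genes showed. The groups thus lay apart for 22 members and overlapped for 12, while they lay apart for 47.5% of all genes.

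**Figure D1:**
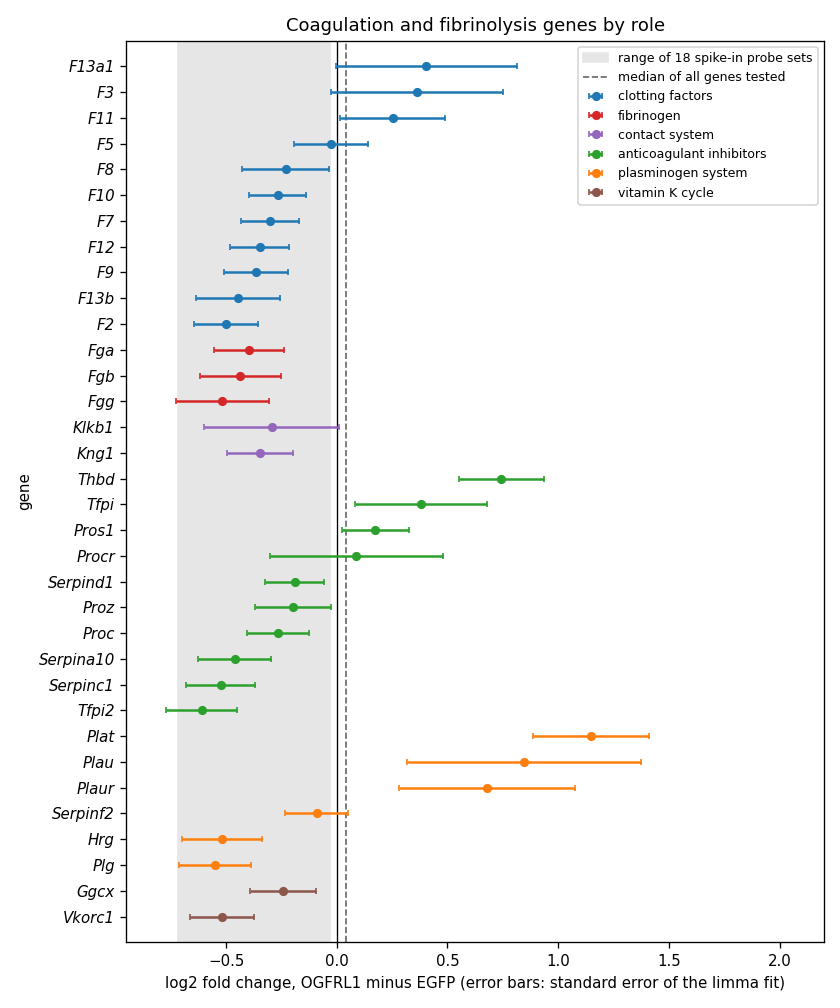
Log2 fold change (OGFRL1 minus EGFP, n = 2 arrays each) of the 34 genes on the horizontal axis, ordered by role, with the standard error of the limma fit; the grey band spans the 18 spike-in probe sets and the dashed line is the median of all genes tested. Plat, Plau, Thbd and Plaur stand furthest to the right, and the 3 fibrinogen genes lie together at -0.40 to -0.52.

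The low members were mostly bright, and the bright end of these arrays was lower in the OGFRL1 group as a whole. Spike-ins are bacterial and phage transcripts normally added to each sample at a fixed amount. The 18 spike-in probe sets (Cre, BioB, BioC and BioD) were all lower in the OGFRL1 group. Their mean log2 fold change was -0.35, with a range of -0.72 to -0.03. Both ends of that range were dim BioB probe sets, with EGFP means of 190 (-0.72) and 236 (-0.03). The brightest, a Cre probe set with an EGFP mean of 12829, was at -0.57. The lower spike-in signals were thus not limited to the bright end. Of the 8 members with a mean signal over 5000, all were lower, with a median of -0.51, and of the 126 other genes at that signal 95.2% were lower, with a median of -0.425. Of the 10 members with a mean signal from 1000 to 5000, all were lower as well (median -0.27), against 65.8% of the 968 other genes (median -0.125). Of the 7 members from 100 to 1000, 5 were lower (median -0.29), against 43.8% of 5196 other genes (median 0.04). Of the 9 members under 100, only F8 was lower (median 0.40), against 40.1% of 5618 other genes (median 0.09). The part of this shift in the members' values was not tested beyond the scalings that follow.

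**Figure D2:**
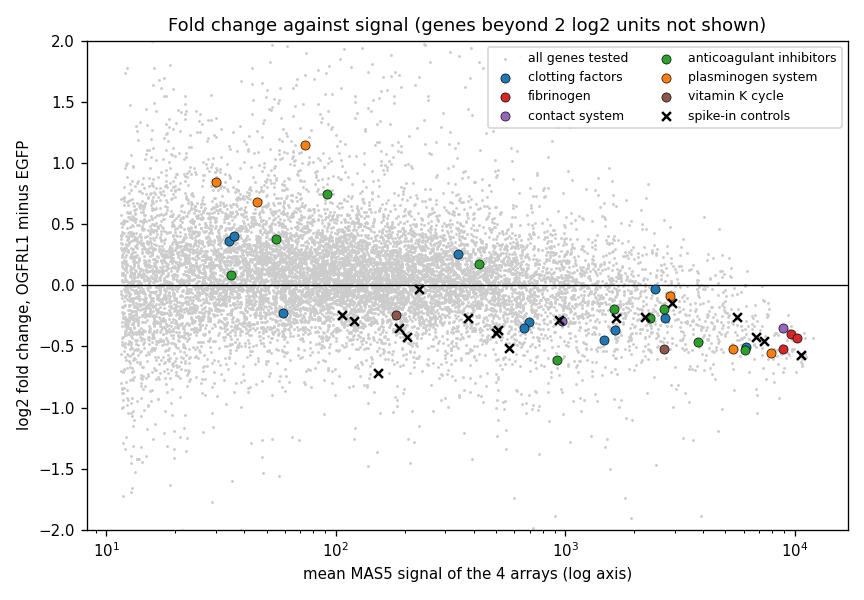
Log2 fold change (OGFRL1 minus EGFP) against the mean signal of the 4 arrays on a log axis, for all genes tested (grey), the 34 members by role and the 18 spike-in probe sets (crosses); 26 genes beyond 2 log2 units are not drawn. The bright members at the right lie among the bright spike-ins and the other bright genes, and the members above 0.5 are all at a mean signal under 100.

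The scaling of the arrays set the side of 0 for many members. With the arrays set to equal spike-in controls, the median of all genes went from 0.04 to 0.38, and 21 of the 34 members were above 0 (median 0.08). With quantile normalization 15 were above 0 (median -0.09), and with equal medians 11 (median -0.22). Quantile normalization moved the members by unlike amounts, Fga from -0.40 to 0.115 and Kng1 from -0.35 to 0.16, but F8 from -0.23 to -0.335. Relative to the median of all genes, the members' median was at -0.31 as deposited, -0.295 with equal spike-ins and -0.31 with equal medians. Equal spike-ins and equal medians divide each array by a single factor and move all genes by nearly the same amount. The agreement of these values was thus fixed in advance. Quantile normalization, which can change the difference, left it at -0.09. Both single-factor scalings moved every member upward, so members above 0 as deposited had to stay above 0 under them. Plat, Plau, Plaur, Thbd, Tfpi, F3, F13a1, F11, Pros1 and Procr were above 0 in each of the 4 scalings, while F2, F9, F13b, Fgg, Serpinc1, Serpina10, Tfpi2, Plg, Hrg and Vkorc1 were below 0 in each of them. F12 was below 0 in 3 scalings and at 0 with equal spike-ins, and the other 13 were found on both sides of 0.

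**Figure D3:**
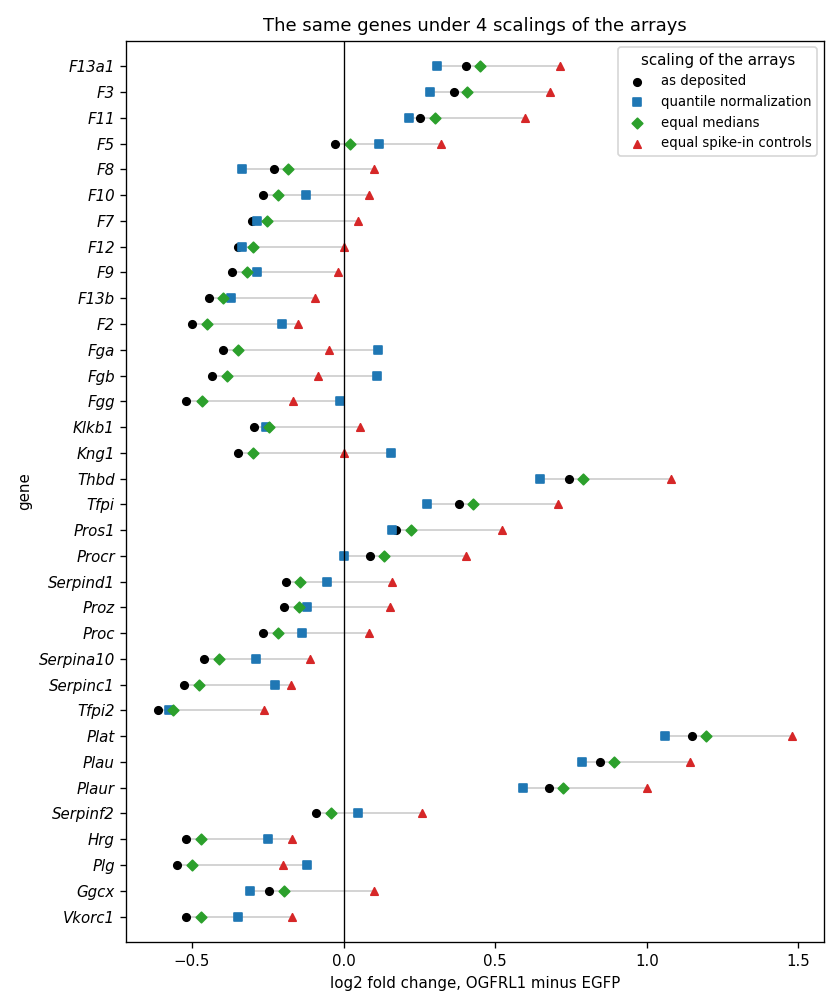
Log2 fold change (OGFRL1 minus EGFP) of the 34 genes on the horizontal axis under 4 scalings of the arrays, with a grey line joining the lowest and highest value of a gene. Quantile normalization takes Fga to 0.115 and Fgb to 0.11, and equal spike-ins bring F12 to 0, while Plat stays between 1.06 and 1.48.

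Among the clotting factors, 8 of 11 were lower in the OGFRL1 group and 3 higher, with a median of -0.27 and none past the adjusted threshold. F2, prothrombin, the precursor of thrombin, had signals of 7724 and 6657 on EGFP arrays 1 and 2 and of 5029 and 5105 on OGFRL1 arrays 1 and 2. The groups did not overlap, and the OGFRL1 arrays lay closer together than the EGFP arrays. The log2 fold change of F2 was -0.50 ± 0.145 (SE; limma adjusted p = 0.184), and it was -0.20 after quantile normalization and -0.15 with equal spike-ins.

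The vitamin K-dependent factors of the cascade followed the same order of groups. F9, which together with factor VIII activates factor X, was at 1688 and 2034 in EGFP livers and at 1446 and 1428 in OGFRL1 livers (-0.37 ± 0.145, adjusted p = 0.306). F10, whose active form cuts prothrombin, was at 3059 and 2868 against 2507 and 2417 (-0.27 ± 0.13, adjusted p = 0.395). F7, the partner of tissue factor, was at 803 and 735 against 607 and 639 (-0.30 ± 0.13, adjusted p = 0.348). Each of these 3 genes lay apart and lower on the probe set used for it, which 20.5% of all genes showed. The margins did not pass the test over all genes. The dimmer F10 probe sets overlapped between groups, at -0.07 and 0.02. With equal spike-ins F7 and F10 were at 0.05 and 0.08.

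F12, the factor that starts the contact pathway, was at 735 and 752 in EGFP livers and at 620 and 548 in OGFRL1 livers (-0.35 ± 0.135, adjusted p = 0.295). F13b, the carrier subunit of the fibrin-crosslinking factor XIII, was at 1504 and 1900 against 1419 and 1085 (-0.445 ± 0.189, adjusted p = 0.336). F11, which activates factor IX, overlapped between groups, with 239 and 390 against 346 and 384 (0.25 ± 0.24, adjusted p = 0.676). EGFP array 1 alone was low for F11, and without it the log2 fold change was -0.10.

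The 2 cofactors of the cascade showed small differences. F5, the cofactor of prothrombin cleavage, was at 2188 and 2801 against 2577 and 2287 (-0.03 ± 0.17, adjusted p = 0.96). F8, the cofactor of factor IX, which liver endothelium is known to make, was at 58.8 and 68.7 against 54.8 and 52.7 (-0.23 ± 0.20, adjusted p = 0.643). The F8 groups lay apart by a few signal units only, and the file gives no detection calls, so whether such dim probe sets were above background was not tested.

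F3, tissue factor, the membrane protein that starts clotting and is made by cells around vessels, and F13a1, the catalytic subunit of factor XIII known from macrophages and megakaryocytes, were the other dim factors. F3 had signals of 18.8 and 42.4 against 44.8 and 31.6 (0.36 ± 0.39, adjusted p = 0.719). F13a1 was at 34.5 and 24.1 against 25.4 and 59.9 (0.40 ± 0.41, adjusted p = 0.701). Both overlapped between groups. Without EGFP array 1, F3 was at -0.155, and without OGFRL1 array 2, F13a1 was at -0.16.

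The 3 fibrinogen genes were lower together, with log2 fold changes of -0.40 ± 0.16 for Fga, -0.435 ± 0.181 for Fgb and -0.52 ± 0.21 for Fgg, whose products are the alpha, beta and gamma chains that assemble into a single secreted protein. Fga had signals of 12034 and 9864 on the EGFP arrays and of 8059 and 8489 on the OGFRL1 arrays. Fgb was at 13479 and 10123 against 8315 and 8982, and Fgg at 12613 and 8504 against 6979 and 7492. All 3 genes had the same order of arrays, with EGFP array 1 highest and OGFRL1 array 1 lowest, and no overlap between groups. None passed the test (adjusted p = 0.31, 0.327 and 0.316). All 3 had mean signals over 5000, where 95.2% of the 126 other genes were lower as deposited, with a median of -0.425. Of the role medians, that of fibrinogen moved most with the scaling. It was -0.435 as deposited, -0.385 with equal medians, -0.08 with equal spike-ins and 0.11 after quantile normalization. Without EGFP array 1 it was -0.23, and without EGFP array 2, -0.64.

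The fibrinogen genes lie close together on mouse chromosome 3 and differed by similar amounts, around the median of the other genes over 5000 (-0.425). The 250 bases before the RefSeq starts (GRCm38.p6) of the 3 fibrinogen genes are shown. The start of Plaur, a dim gene that lay on the other side of 0, is shown beside them. Capitals mark the matches to 5 motifs searched on both strands, GTTAAT (part of an HNF1 site), TGANTCA (AP-1), TTCNNNGAA (STAT-like), CTGGGAA (of the interleukin 6 response type) and TTGCNNAA (C/EBP-like).
Fga, chr3:83025903-83026152, plus strand: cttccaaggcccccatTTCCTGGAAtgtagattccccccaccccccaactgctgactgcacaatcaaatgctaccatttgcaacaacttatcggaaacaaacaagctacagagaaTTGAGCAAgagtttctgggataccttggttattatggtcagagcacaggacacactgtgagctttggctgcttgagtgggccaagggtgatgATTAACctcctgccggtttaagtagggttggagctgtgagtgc
Fgb, chr3:83049864-83050113, minus strand: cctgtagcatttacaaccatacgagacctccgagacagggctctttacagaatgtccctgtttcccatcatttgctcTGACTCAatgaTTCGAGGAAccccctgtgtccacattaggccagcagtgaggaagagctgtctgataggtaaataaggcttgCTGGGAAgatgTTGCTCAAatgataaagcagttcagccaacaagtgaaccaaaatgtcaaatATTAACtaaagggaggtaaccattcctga
Fgg, chr3:83007474-83007723, plus strand: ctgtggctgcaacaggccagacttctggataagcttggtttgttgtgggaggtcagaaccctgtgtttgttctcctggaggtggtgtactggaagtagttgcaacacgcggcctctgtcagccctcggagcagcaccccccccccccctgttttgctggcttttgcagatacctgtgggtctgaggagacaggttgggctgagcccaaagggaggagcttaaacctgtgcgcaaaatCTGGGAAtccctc
Plaur, chr7:24462233-24462482, plus strand: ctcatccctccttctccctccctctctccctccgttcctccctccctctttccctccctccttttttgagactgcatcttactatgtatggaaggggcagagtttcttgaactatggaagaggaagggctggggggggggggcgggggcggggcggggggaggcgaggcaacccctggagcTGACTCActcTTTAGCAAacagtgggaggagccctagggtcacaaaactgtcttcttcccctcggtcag

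The fibrinogen windows differed in what they held. Fga had GTTAAT at -43, TTGCNNAA at -135 and TTCNNNGAA at -234, counted by the first base of the match from the start. Fgb held all 5, with GTTAAT at -29, TTGCNNAA at -80, CTGGGAA at -91, TTCNNNGAA at -162 and TGANTCA at -173. Fgg had CTGGGAA at -13 and no other match, and Plaur had TTGCNNAA at -59 and TGANTCA at -69. Over all 32851 windows of that length, 6.43% held GTTAAT, 6.75% TGANTCA, 7.02% TTCNNNGAA, 9.1% CTGGGAA and 9.56% TTGCNNAA. Windows were given for 28 of the 35 genes, 32 windows in all. Of these, 6 held GTTAAT, 7 TGANTCA, 4 TTCNNNGAA, 5 CTGGGAA and 9 TTGCNNAA. The GTTAAT of Tfpi2 is a single site that lies in overlapping windows and was counted in each. These matches describe the letters only.

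The 2 other genes of the contact system were lower. Kng1, kininogen, the carrier of prekallikrein and source of bradykinin, was at 10796 and 9121 in EGFP livers and at 7688 and 7912 in OGFRL1 livers (-0.35 ± 0.15, adjusted p = 0.346). It was at 0.16 after quantile normalization and at 0.003 with equal spike-ins. Kng1 has a near-identical neighbour, Kng2, and the array may not tell them apart, so the gene assignment is uncertain. Klkb1, prekallikrein, the protease that factor XII activates, was at 735 and 1460 against 897 and 795 (-0.29 ± 0.305, adjusted p = 0.709). EGFP array 2 alone was high for Klkb1. Without EGFP array 1 the log2 fold change was -0.79, and without EGFP array 2 it was 0.20.

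The anticoagulant inhibitors were divided, with 6 of 10 lower and 4 higher and a median of -0.19. The inhibitors that circulate as serpins were lower. Serpinc1, antithrombin, which blocks thrombin and activated factor X, was at 7944 and 6505 in EGFP livers and at 4930 and 5063 in OGFRL1 livers. Its groups lay apart, at a log2 fold change of -0.525 ± 0.154 (limma adjusted p = 0.191). It was at -0.225 after quantile normalization and at -0.17 with equal spike-ins. Its target F2 was at -0.50 as deposited. Both genes had mean signals over 5000, where 95.2% of the 126 other genes were lower (median -0.425). Serpina10, the protein Z-dependent inhibitor, was at 4961 and 3841 against 3072 and 3271 (-0.46 ± 0.17, adjusted p = 0.261). Serpind1, heparin cofactor II, was at 2717 and 3024 against 2532 and 2490 (-0.19 ± 0.13, adjusted p = 0.562), and was at 0.16 with equal spike-ins.

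Tfpi2, a Kunitz-type inhibitor that acts on plasmin and other proteases, had the most negative log2 fold change of the members. It was at 1093 and 1132 in EGFP livers and at 826 and 640 in OGFRL1 livers. The EGFP arrays were nearly equal, the OGFRL1 arrays differed more, and the groups did not overlap. The log2 fold change was -0.61 ± 0.16 (unadjusted p = 0.00796, limma adjusted p = 0.155), and it was -0.57 after quantile normalization and -0.26 with equal spike-ins. Its namesake Tfpi, the tissue factor pathway inhibitor known from endothelium, was at 62.2 and 34.6 against 56.1 and 67.7 (0.38 ± 0.30, adjusted p = 0.611). The groups overlapped, and without EGFP array 2 the log2 fold change of Tfpi was -0.01.

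The protein C pathway, in which thrombin bound to thrombomodulin activates protein C to cut factors V and VIII, held members on both sides of 0. Thbd, thrombomodulin, was at 67.9 and 66.7 in EGFP livers and at 129.8 and 101.9 in OGFRL1 livers. Both OGFRL1 arrays were above both EGFP arrays, 1.72 times higher in the mean. The log2 fold change of Thbd was 0.74 ± 0.19 (unadjusted p = 0.00689, adjusted p = 0.146), and it was 0.65 after quantile normalization and 1.08 with equal spike-ins. Proc, protein C itself, was lower, at 2376 and 2757 against 2086 and 2174 (-0.265 ± 0.140, adjusted p = 0.435).

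Pros1, protein S, the cofactor of activated protein C, was at 358 and 437 against 457 and 436 (0.17 ± 0.15, adjusted p = 0.652). Procr, the endothelial protein C receptor, was at 48.9 and 21.3 against 30.03 and 40.3 (0.09 ± 0.39, adjusted p = 0.944). Proz, protein Z, the cofactor of Serpina10, was at 1571 and 1934 against 1694 and 1365 (-0.20 ± 0.17, adjusted p = 0.653). All 3 genes overlapped between groups.

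In the plasminogen system the activators and their receptor were above 0 and the plasma proteins below it, with a median of 0.29 over the 6 genes measured. That median was 0.54 without EGFP array 1, 0.04 without EGFP array 2 and 0.05 without OGFRL1 array 2. Plat, the tissue plasminogen activator, had the highest log2 fold change and the smallest p of the members. Its signal was 57.1 and 34.0 in EGFP livers and 100.1 and 104.2 in OGFRL1 livers, a mean of 45.5 ± 16.3 (SD, n = 2) against 102.2 ± 2.9. The groups lay apart and the OGFRL1 arrays were nearly equal, 2.24 times higher in the mean. The log2 fold change was 1.15 ± 0.26 (unadjusted p = 0.0039, limma adjusted p = 0.116).

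Plau, the urokinase activator, was at 25.6 and 13.1 in EGFP livers and at 20.3 and 62.1 in OGFRL1 livers (0.85 ± 0.53, adjusted p = 0.512). Only OGFRL1 array 2 was high for Plau, and without it the log2 fold change was 0.11. Plaur, the urokinase receptor that holds plasminogen activation at the cell surface, was at 51.8 and 20.6 against 51.2 and 58.9 (0.68 ± 0.40, adjusted p = 0.48). Here EGFP array 2 alone was low, and without it the log2 fold change was 0.08. Thus on the probe sets used, only Plat of the activation genes separated the 2 groups, and 27% of all genes lay apart with OGFRL1 higher. The differences in Plau and Plaur each rested on 1 array. On their second probe sets, both under the filter, Plau lay apart and Plat overlapped.

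Plg, plasminogen, was at 10388 and 8470 in EGFP livers and at 6100 and 6724 in OGFRL1 livers (-0.55 ± 0.16, adjusted p = 0.19), without overlap, and was at -0.12 after quantile normalization. Hrg, histidine-rich glycoprotein, which binds plasminogen and heparin, was at 7277 and 5432 against 4184 and 4598 (-0.52 ± 0.18, adjusted p = 0.245). Serpinf2, alpha2-antiplasmin, the main plasmin inhibitor, overlapped between groups, at 2788 and 3155 against 2934 and 2642 (-0.09 ± 0.14, adjusted p = 0.815). Substrate and inhibitor thus differed by unlike amounts as deposited, a difference that was not tested.

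**Figure D4:**
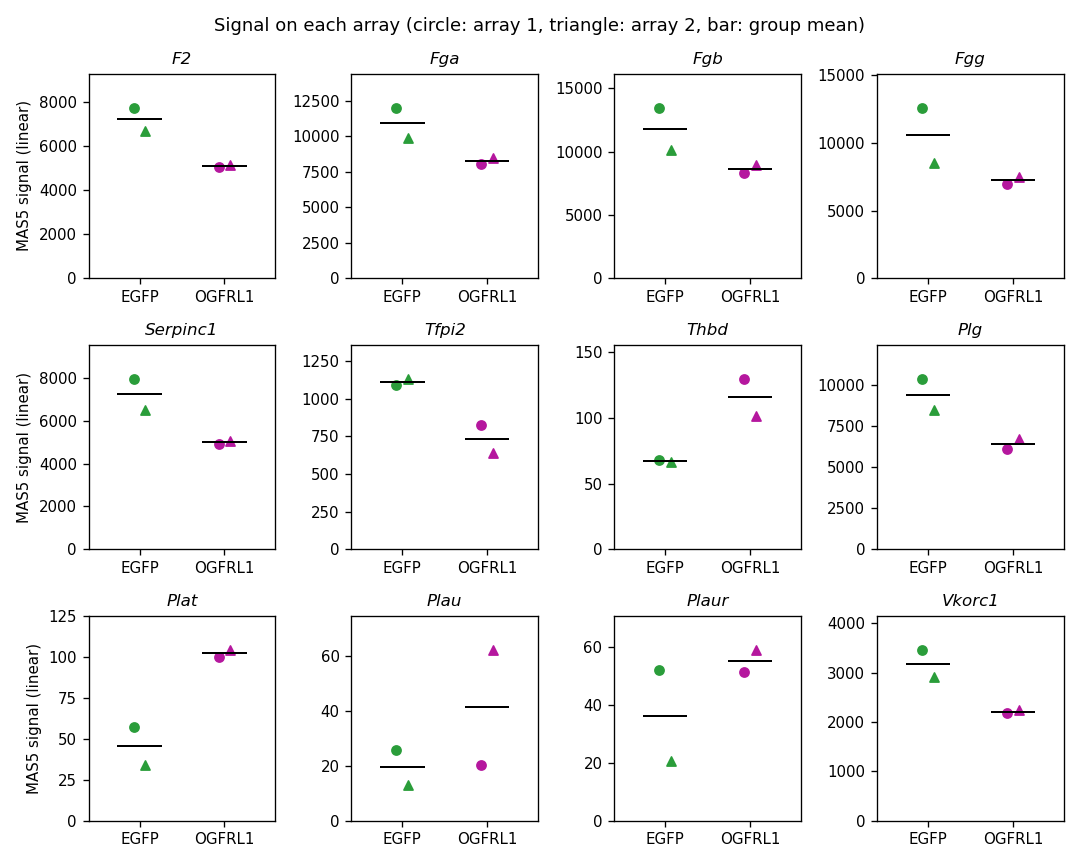
Deposited signal on a linear axis from 0 for 12 members, with 1 point per array (circle for array 1, triangle for array 2) and a bar at the mean of the 2 arrays of a group. Plat and Thbd are higher on both OGFRL1 arrays, Plau is high on OGFRL1 array 2 only and Plaur is low on EGFP array 2 only, while the bright genes share a high EGFP array 1.

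The 2 enzymes of the vitamin K cycle were lower. Vkorc1, the epoxide reductase that warfarin blocks, was at 3456 and 2908 in EGFP livers and at 2172 and 2247 in OGFRL1 livers (-0.52 ± 0.14, unadjusted p = 0.00993, adjusted p = 0.171). It was at -0.35 after quantile normalization and at -0.17 with equal spike-ins. Ggcx, the gamma-carboxylase that uses reduced vitamin K, was at 205.7 and 190.6 against 173.8 and 159.9 (-0.24 ± 0.15, adjusted p = 0.503). Both genes had no overlap between groups on the probe sets used for them, and Ggcx was at 0.10 with equal spike-ins. The dimmer Ggcx probe set overlapped between groups, at -0.10.

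Probe sets of the same gene mostly lay on the same side of 0, with exceptions. Among all probe sets, 43 of the 45 passed the filter, and none passed the adjusted threshold, where 0.195% of 22516 did (14 had an unadjusted p under 0.05, a share of 13.8% over all probe sets). The brightest probe set of F10 was at -0.27, while the others were at -0.07 ± 0.15 and 0.02 ± 0.15. The brightest Tfpi probe set was at 0.38, and the 3 others were at 0.02, 0.09 and 0.03. The dimmer probe sets of Ggcx and Kng1 overlapped between groups, at -0.10 and -0.15, while the brighter ones did not, at -0.24 and -0.35. The second probe set of Plat had signals of 1.15 and 13.2 against 9.17 and 9.33 and that of Plau 0.55 and 12.2 against 12.3 and 14.6, so both were under the filter and were not tested.

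**Figure D5:**
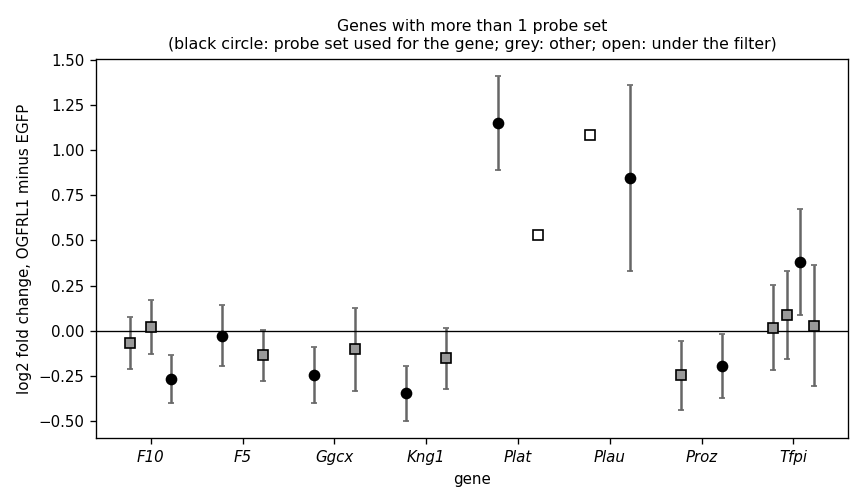
Log2 fold change (OGFRL1 minus EGFP) of each probe set of the 8 genes with more than 1, with the standard error of the fit over all probe sets; black circles are the probe sets used for the genes and open squares those under the filter, which have no error. The 3 F10 probe sets spread from -0.27 to 0.02 and the 4 Tfpi probe sets from 0.02 to 0.38.

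Leaving out an array changed which members passed. Such a fit takes the spread from the group that keeps 2 arrays and assumes that the lone array varies like them, and the OGFRL1 arrays lay closer together for each of the 8 members over 5000. Without EGFP array 2, 10 members passed the adjusted threshold, all lower, namely F2, Fga, Fgb, Fgg, Kng1, Hrg, Plg, Serpinc1, Serpina10 and Vkorc1, where 3.48% of all genes were called lower. Fgg was at -0.80 there and at -0.23 without EGFP array 1. Without EGFP array 1, 3 members passed, namely Klkb1, Plat (1.49) and Plaur (1.28), where 5% of all genes did. Without OGFRL1 array 1 or 2 none did, with 5 and 2 members at an unadjusted p under 0.05, where 7.7% and 6.1% of all genes were. With equal spike-ins Plat, Plau, Plaur and Thbd passed, all higher, in a fit that called 12.2% of all genes higher.

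Further genes of the pathway, from a list of 33 of which 23 were tested, were higher in 14 cases and lower in 9 (median 0.10). Of all genes tested, 55.6% were higher and 44.4% lower. None of the 23 passed the adjusted threshold. At an unadjusted p under 0.05 in limma, 4 were higher and 3 lower, where 9.01% and 6.28% of all genes were. The one nearest the threshold was Prss23, a secreted serine protease, at 41.5 and 46.7 in EGFP livers and 108.8 and 114.1 in OGFRL1 livers (1.27 ± 0.18, limma adjusted p = 0.0512). With 4 times the pseudocount it passed (limma adjusted p = 0.048), but with the mean over probe sets it was at 0.97 (limma adjusted p = 0.121). Without OGFRL1 array 2 it was at 1.24. Anxa2, annexin A2, a surface receptor for plasminogen and Plat, was at 686 and 422 against 1254 and 996 (1.05 ± 0.25, adjusted p = 0.125). With the mean over probe sets Anxa2 was at 0.755 (limma adjusted p = 0.342).

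Tgm2, the tissue transglutaminase, was at 2204 and 1970 against 2820 and 2799 (0.43 ± 0.13, adjusted p = 0.209). Hgfac, an activator of hepatocyte growth factor related to factor XII, was at 835 and 891 against 567 and 652 (-0.50 ± 0.14, adjusted p = 0.171). Serping1, the inhibitor of factor XII and kallikrein, was at -0.45 ± 0.145 (adjusted p = 0.219), and Pzp, a broad protease inhibitor, at -0.44 ± 0.15 (adjusted p = 0.242). After quantile normalization Serping1 was at -0.18 and Pzp at 0.055, and with equal spike-ins they were at -0.10 and -0.09. With equal spike-ins Prss23, Anxa2 and Tgm2 passed the threshold, at 1.605, 1.40 and 0.78.

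Markers of the cell types that liver can hold differed in the same direction as some of these genes, and their part in the results was not tested. The 8 hepatocyte markers were lower in 7 cases. Their summed signals were 82099 and 58066 in EGFP livers and 45153 and 49801 in OGFRL1 livers. Most of each sum came from Alb, Apoa1, Ttr, Ahsg and Cps1, whose mean signals were over 5000. Of the 126 genes other than members at that signal, 95.2% were lower as deposited (median -0.425). How much of the markers' difference follows that shift was not tested. Markers of stellate cells and myofibroblasts were higher in 7 of 8 cases, with sums of 1788 and 2093 against 2821 and 3533. Col3a1 made up over 50% of each of these sums. Lrat was the 1 marker of this list below 0, at -0.08. Both OGFRL1 sums were above both EGFP sums, an order of groups that Plat, Thbd and 27% of all genes showed. The 8 endothelial markers were lower in 5 cases, with sums of 1679 and 1601 against 1473 and 1523, and Clec4g made up over 50% of each sum. Lyve1, Tek and Emcn were the 3 above 0, at 0.40, 0.08 and 0.13. Macrophage markers were lower in 5 of 8 cases, with sums of 8292 and 3955 against 4616 and 7302. No list had a defining marker listed at 0, and in bulk tissue fewer cells of a type and less RNA per cell cannot be told apart.

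F13a1, Plau, Plaur and Tfpi shared the order of arrays OGFRL1 2, EGFP 1, OGFRL1 1, EGFP 2 from high to low. The macrophage markers Cd68, at 245 and 142 against 235 and 401, and Csf1r, at 3204 and 1823 against 2028 and 3434, had that order too, as did the monocyte marker Ccr2, at 73.9 and 43.3 against 59.1 and 132.3. These 3 markers were picked after their values were seen, and the other 6 of 8 macrophage markers and 4 of 5 neutrophil and monocyte markers had other orders. The endothelial marker Lyve1 and Fgl2, of the further pathway genes, shared it. The order itself was picked after the members' values were seen, so its share among them is no test. It was found in 4 of the 34 members, 11.8%, and in 5.2% of all genes tested. The remaining lists were small. Megakaryocyte and platelet markers were higher in 3 of the 4 tested, with sums of 149 and 180 against 192 and 275. Cholangiocyte markers were higher in 2 of 4 (sums 107.5 and 108.0 against 102.0 and 109.4) and neutrophil and monocyte markers in 2 of 5 (752 and 279 against 367 and 582). The 1 red cell marker tested, Alas2, was at 246.6 and 375.4 against 123.7 and 96.0.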

How the data were processed

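Gene expression was measured on 4 single-colour Affymetrix arrays from 100 ng of total RNA each, per the labels' protocols. The deposited intensity values are linear MAS5 signals, 1 per probe set, per the submitters' processing notes; the version, scanner and detection calls are not given in the sources used here. Each array had the same mean signal after trimming 2% at both ends (100.0), so arrays had been scaled as a whole. Median signals were 11.6 to 12.5.

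Gene symbols were those of the platform annotation (34945 probe sets with 1 symbol, 932 with several, 9160 with none, 64 controls); 34741 of the named ones had an identifier in a RefSeq gene table (GRCm38.p6). Signals were log2-transformed after adding 3.51, the 25th percentile. A gene was represented by its brightest probe set and kept where its mean signal reached 11.6 (the overall median), which left 11942 genes. limma 3.58.1 in R 4.3.3 (lmFit, eBayes with an intensity trend, 2-sided, 2 residual and 4.48 prior degrees of freedom) was adjusted by Benjamini-Hochberg over all genes, threshold 0.05.

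Members and lists were chosen with earlier results of these data known. The named genes are every member and, of the other pathway genes, the 6 with the smallest p. Cd68, Csf1r and Ccr2, and the order of arrays they share, were picked after the values were seen. Nothing in the labels says that a group's arrays were separate mice, so p-values measure the spread between arrays, which may be technical, and their number limits the precision. Whether replicate numbers pair the arrays is not stated in the labels, and the main fit did not pair them. Alternatives were 3 scalings, 2 treatments of low values, 2 filters, the mean over probe sets, no intensity trend, a replicate block, each array left out and a fit of all probe sets. Values were tabulated in pandas 2.3.3 and numpy 2.4.6 (Python 3.11.15) and plotted in matplotlib 3.10.9.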

Additional observations from a re-analysis of the deposited data

How the results depend on the processing

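The count of 0 members past the threshold was also found with quantile normalization, equal medians, 4 times the pseudocount, a floor, no filter, the stricter filter, the mean over probe sets, no intensity trend, the replicate block and the fit of all probe sets. It was 4 with equal spike-ins, and 0 to 10 with 1 array left out. For the probe sets it was 2 with equal spike-ins and 0 to 10 with 1 array left out. What arrays of the same replicate number share is not stated in the labels. Their deviations from the group means had a correlation of -0.28, necessarily the same for both pairs with 2 arrays per group. With the replicate block 59 genes and 0 members passed. The crossed replicate block, added after seeing the data, called 934 genes, 6 members and 3 member probe sets.

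Over all genes the count of 61 (43 higher, 18 lower) became 4 with quantile normalization (1 higher, 3 lower), 1519 with equal spike-ins (1462 higher, 57 lower), 94 with 4 times the pseudocount, 13 with the mean over probe sets, 2 under the stricter filter, and 0 with no filter and with no intensity trend (limma; 2179 and 1654 at an unadjusted p under 0.05). With 1 array left out it was 0 to 873.

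The median over all members was -0.087 with quantile normalization, -0.216 with equal medians, 0.084 with equal spike-ins, -0.348 under the stricter filter (26 members), and -0.298 to -0.224 with 1 array left out. With equal spike-ins it was 0.083 for clotting factors, -0.084 for fibrinogen, 0.029 for the contact system, 0.156 for inhibitors, 0.629 for the plasminogen system and -0.035 for the vitamin K cycle. With quantile normalization it was 0.109 for fibrinogen, -0.049 for the contact system and -0.087 for inhibitors. Inhibitors were at -0.144 with equal medians, -0.231 under the stricter filter and -0.273 to -0.136 with 1 array left out. The plasminogen system was at -0.519 under the stricter filter, which leaves out its dim members.

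Direction reversed for 18 members in 1 or more settings and for 16 in none. With quantile normalization F5 was at 0.116, Fga 0.115, Fgb 0.109, Kng1 0.158 and Serpinf2 0.049. With equal medians F5 was at 0.022. With equal spike-ins F5 was at 0.322, F7 0.047, F8 0.101, F10 0.083, Klkb1 0.055, Kng1 0.003, Proc 0.085, Proz 0.153, Serpind1 0.159, Serpinf2 0.259 and Ggcx 0.1. With 1 array left out F3 ranged from -0.155 to 0.883, F5 from -0.206 to 0.15, F11 from -0.096 to 0.601, F13a1 from -0.162 to 0.969, Klkb1 from -0.787 to 0.2, Procr from -0.45 to 0.627 and Tfpi from -0.013 to 0.774. The cause of these shifts was not tested. No detection calls were used, so signal over background limits what the dim members show.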
